A study of Mus musculus with 38 samples.

Results

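The comparison set liver libraries labelled tet-YAP directly against liver libraries labelled tet-Myc after 4 weeks, and its members were the 4 columns named for tet-YAP and the 3 named for tet-Myc in the table of the LAP system, 7 of the 38 libraries of the series. The mice of both groups carried LAP-tTA, a tetracycline transactivator under the LAP promoter that directs transgene expression to the liver, together with either tet-YAP, which encodes YAP S127A from the Col1A1 locus, or tet-Myc. The libraries labelled tet-YAP (LAP-tTA;tet-YAP, 4 weeks) and tet-Myc (LAP-tTA;tet-Myc, 4 weeks) were examined beside 3 libraries of LAP-tTA mice without either transgene (WT). The same contrast was available after 2 days of induction in 6 tet-YAP and 4 tet-Myc libraries of a separate system, R26-rtTA mice. RNA of whole liver was sequenced. Whether each library stands for its own animal is not given in the labels, and p-values measure only the spread between libraries, which may be technical. Values are RPKM, read counts scaled to gene length and to library size, and libraries are numbered in column order, which need not be the replicate order of the labels.

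YAP is a transcriptional coactivator that is restrained by the kinases of the Hippo pathway, and it acts mainly through DNA-binding TEAD proteins. The S127A form lacks a phosphorylation site through which LATS kinases keep YAP in the cytoplasm. Myc is a transcription factor that binds E-boxes together with Max and is known for driving ribosome production, biosynthesis and cell cycle entry. Both are known to promote growth of the mouse liver, and YAP is also known for moving hepatocytes towards a biliary or progenitor state.

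Depth, sex and likeness of the libraries bear on what follows. The steps of single reads among low values gave the depth of each library, at which 1 RPKM stood for 34.7 to 46.9 reads per kilobase of gene in the tet-YAP libraries and 31.2 to 40.1 reads per kilobase in the tet-Myc libraries. The sixth-highest gene of these 7 libraries lay at 1541 to 1611 reads per kilobase, a ceiling that is lower in RPKM in deeper libraries, and 29 genes within 0.8 of it in all 7 libraries had a median log2 difference of -0.23, with none called. Xist and the Y-linked genes gave a female pattern in tet-YAP library 2, tet-Myc library 3 and WT libraries 2 and 3. Contrasts with WT therefore differ in their mix of sex patterns as well. The tet-YAP libraries 3 and 4 were the closest pair (root mean square log2 difference 0.19, at 2.14 times the variance of counting reads), and 1 and 2 lay 0.32 apart. Between these pairs the distances were 0.37 to 0.45. Among the tet-Myc libraries, 1 and 2 lay 0.24 apart while library 3 lay 0.46 and 0.50 from them. Between the groups every distance was larger, 0.51 to 0.66.

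Neither transgene could be checked by its transcript. Myc stood at 2.79, 2.54, 2.40 and 2.86 RPKM in tet-YAP libraries 1 to 4, against 1.87, 1.10 and 0.913 RPKM in tet-Myc libraries 1 to 3 and 3.20, 1.16 and 0.630 RPKM in WT libraries. Every tet-YAP library lay above every tet-Myc library, with a log2 difference of 0.84 ± 0.32, adjusted p = 0.123, which did not pass. Yap1 stood at 4.64, 4.24, 4.80 and 4.71 RPKM in tet-YAP libraries, against 5.58, 5.89 and 4.88 RPKM in tet-Myc libraries and 5.16, 4.79 and 4.56 RPKM in WT libraries, and here the tet-YAP libraries lay below the tet-Myc libraries without overlap (log2 difference -0.22 ± 0.12, adjusted p = 0.273). The files do not say whether reads of the transgenes were counted under these symbols, so neither level tests the labels.

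The libraries labelled tet-YAP differed from those labelled tet-Myc in 743 genes, most of them higher in tet-YAP. Differences are tet-YAP minus tet-Myc on log2(RPKM + 0.5), estimated with limma over all 21 LAP libraries, and a call needed a size of at least 0.5 on this scale together with an adjusted p below 0.05. Of 12591 genes tested, 743 (5.9%) were called, 561 higher (4.46%) and 182 lower (1.45%) in tet-YAP. Median ratio scaling of the libraries gave 1039 higher and 141 lower, a share of higher calls of 88.1% in place of 75.5%. At an absolute log2 difference of at least 1, 318 genes were higher and 41 lower. The 4 tet-YAP and 3 tet-Myc libraries did not overlap in 559 of the genes called higher and 168 of those called lower, against 16.3% and 12.9% of all genes tested that lay apart without overlap in these directions. The call and the overlap rest on the same libraries, so this separation is no separate support for the calls. The number of calls moved with single libraries, to 364 without tet-Myc library 1, 417, 457, 493 and 485 without tet-YAP library 3, tet-YAP library 4, tet-Myc library 2 and tet-Myc library 3.

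The position of both groups relative to WT differed as well. Against WT, 3373 genes (26.8%) were called in tet-YAP, 1442 higher and 1931 lower (2140 and 743 after median ratio scaling), whereas 3 genes (0.0238%) were called in tet-Myc by limma, with 1664 at an unadjusted p under 0.05. The 3 genes were Gt(ROSA)26Sor and Ppl, higher (0.0159% of genes tested), and Serpina9, lower (0.00794%), and they were named after their values were seen. Over the 561 genes called higher in tet-YAP than in tet-Myc, the median log2 difference was 1.07, with 1.16 for tet-YAP minus WT and 0.03 for tet-Myc minus WT. Over the 182 genes called lower the corresponding medians were -0.71, -0.73 and -0.02. These contrasts share libraries with one another, those with WT differ in their mix of sex patterns, and they are given only as positions. With the sex pattern as a covariate, 1179 genes were called higher and 2230 lower in tet-YAP than in WT. Without tet-Myc library 3, 225 genes were called between tet-Myc and WT.

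The genes with the largest differences were low in tet-Myc and WT libraries and present in tet-YAP libraries. They were taken among called genes without overlap between the groups, so their separation was part of the choice. Fgfbp1, a secreted carrier that releases fibroblast growth factors from the matrix, stood at 23.6, 19.5, 21.7 and 19.8 RPKM in tet-YAP libraries, against 0.138, 0.0445 and 0.0430 RPKM in tet-Myc libraries (log2 difference 5.23 ± 0.20, adjusted p = 4.86e-13). Krt4, a keratin of stratified epithelia, stood at 27.5, 12.4, 22.5 and 21.6 RPKM in tet-YAP libraries and 0.105, 0.0242 and 0.0350 RPKM in tet-Myc libraries (5.22 ± 0.37, adjusted p = 1.18e-08). In both genes every tet-YAP library was far above every tet-Myc library, and tet-YAP library 2 was the lowest of the 4. Gpc3, an oncofetal heparan sulphate proteoglycan and marker of hepatocellular carcinoma, had the smallest standard error of these, at 13.02, 11.1, 14.0 and 14.1 RPKM in tet-YAP libraries and 0.378, 0.494 and 0.312 RPKM in tet-Myc libraries (3.92 ± 0.14, adjusted p = 2.68e-13). Its WT values, 0.234, 0.394 and 0.558 RPKM, overlapped those of tet-Myc.

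The other genes of the 10 largest increases showed the same separation. Fam83b, a scaffold of growth factor signalling, reached 9.47, 3.96, 12.7 and 9.75 RPKM in tet-YAP libraries and 0.0497, 0.0959 and 0.0463 RPKM in tet-Myc libraries (3.97 ± 0.32, adjusted p = 7.59e-08). Fgd3, a guanine nucleotide exchange factor, reached 9.54, 7.002, 10.02 and 9.39 RPKM in tet-YAP libraries and 0.478, 0.402 and 0.208 RPKM in tet-Myc libraries (3.46 ± 0.18, adjusted p = 4.12e-11). Cryab, the small heat shock protein alpha-B crystallin, reached 13.4, 10.1, 11.8 and 11.1 RPKM in tet-YAP libraries and 0.981, 0.682 and 0.728 RPKM in tet-Myc libraries (3.22 ± 0.15, adjusted p = 7.18e-12). WT held 1.23, 0.897 and 0.960 RPKM of Cryab. Pdzk1ip1, a small membrane protein that binds PDZ domain proteins, was at 11.7, 8.56, 8.33 and 7.48 RPKM in tet-YAP libraries and 0.653, 1.12 and 0.640 RPKM in tet-Myc libraries (2.87 ± 0.22, adjusted p = 2.77e-08), with WT at 1.57, 1.78 and 1.41 RPKM. Kcnh7, a potassium channel, was at 3.19, 2.19, 3.77 and 3.28 RPKM in tet-YAP libraries and 0.0281, 0.0272 and 0.0350 RPKM in tet-Myc libraries (2.75 ± 0.15, adjusted p = 1.34e-10). Lrtm2, a transmembrane protein with leucine-rich repeats, had the widest standard error (3.33 ± 0.75, adjusted p = 0.01005), with 6.28, 5.98, 7.07 and 5.76 RPKM in tet-YAP libraries and 0.109, 0.434 and 0.0364 RPKM in tet-Myc libraries, and its call was lost with tet-YAP libraries 1 and 2 alone. Psca, a cell surface antigen, was at 1.72, 3.39, 4.81 and 7.18 RPKM in tet-YAP libraries and was listed at 0 in all 3 tet-Myc libraries, so that no fold is given.

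The largest decreases included 2 cytochrome P450 genes. Cyp2c39, an epoxygenase of the cytochrome P450 family, stood at 0.497, 1.39, 4.15 and 4.09 RPKM in tet-YAP libraries, against 14.2, 12.1 and 22.4 RPKM in tet-Myc libraries (-2.68 ± 0.40, adjusted p = 0.000193), and Cyp2b10, a classic target of the xenobiotic receptor CAR, stood at 0.395, 2.88, 0.543 and 0.831 RPKM in tet-YAP libraries, against 7.70, 5.98 and 8.37 RPKM in tet-Myc libraries (-2.44 ± 0.53, adjusted p = 0.00801). Tet-YAP library 1 was the lowest of the group in both genes. Near-identical copies of both genes exist and could share reads. The Cyp2c39 call was lost in the male-pattern libraries alone and the Cyp2b10 call with tet-YAP libraries 1 and 2 alone. The WT libraries differed between these enzymes, at 15.2, 25.2 and 22.3 RPKM for Cyp2c39 and 0.578, 2.65 and 4.74 RPKM for Cyp2b10, so that tet-Myc lay at the WT level in Cyp2c39 and above every WT library in Cyp2b10. The lowest WT value of both genes was that of WT library 1, the male-pattern library of its group.

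Lipg, the endothelial lipase, was at 2.25, 3.75, 1.09 and 0.782 RPKM in tet-YAP libraries and 5.94, 4.82 and 6.81 RPKM in tet-Myc libraries (-1.51 ± 0.31, adjusted p = 0.00472). Every tet-YAP library lay below every tet-Myc library, with WT at 5.69, 9.12 and 10.7 RPKM, and with tet-YAP libraries 1 and 2 alone the Lipg difference was -0.88 and its call was lost. Sult2a7, a hydroxysteroid sulphotransferase with close copies, was at 0.161, 0.593, 0.175 and 0.214 RPKM in tet-YAP libraries and 2.79, 3.28 and 1.06 RPKM in tet-Myc libraries (-1.80 ± 0.26, adjusted p = 0.000142). Xlr3a, of an X-linked family of near-identical copies, was at 0.368, 0.902, 0.218 and 0.311 RPKM in tet-YAP libraries and 3.31, 3.32 and 1.89 RPKM in tet-Myc libraries (-1.83 ± 0.27, adjusted p = 0.000225), and Lrtm1, a relative of Lrtm2, was at 0.383, 1.60, 0.582 and 1.12 RPKM in tet-YAP libraries and 2.44, 3.28 and 4.55 RPKM in tet-Myc libraries (-1.51 ± 0.32, adjusted p = 0.00563). In Lrtm1 tet-YAP libraries 2 and 4 came closest to the tet-Myc libraries, and its call was lost with tet-YAP libraries 1 and 2 alone.

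Of the same group, Hspa1b, Ddit4 and Slc51b were high mainly in tet-Myc libraries 1 and 2. Hspa1b, an inducible Hsp70 chaperone with a near-identical copy, stood at 2.11, 1.74, 1.49 and 2.10 RPKM in tet-YAP libraries, against 14.7, 7.03 and 2.93 RPKM in tet-Myc libraries and 3.08, 1.10 and 1.05 RPKM in WT libraries (-1.64 ± 0.43, adjusted p = 0.0268). Ddit4, a stress-induced inhibitor of mTORC1, stood at 1.28, 1.28, 1.52 and 1.34 RPKM in tet-YAP libraries, against 9.17, 8.22 and 1.86 RPKM in tet-Myc libraries (-1.66 ± 0.44, adjusted p = 0.0294). Slc51b, a subunit of the bile acid exporter of the basolateral membrane, stood at 0.237, 0.591, 0.505 and 0.656 RPKM in tet-YAP libraries, against 3.02, 4.23 and 1.38 RPKM in tet-Myc libraries (-1.68 ± 0.38, adjusted p = 0.0106). In each, tet-Myc library 3, the female-pattern library, was closest to tet-YAP, and each call was lost without tet-Myc library 1 and without tet-Myc library 2. The Ddit4 call was also lost without any single tet-YAP library and the Hspa1b call without tet-YAP library 2, 3 or 4.

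**Figure D1:**
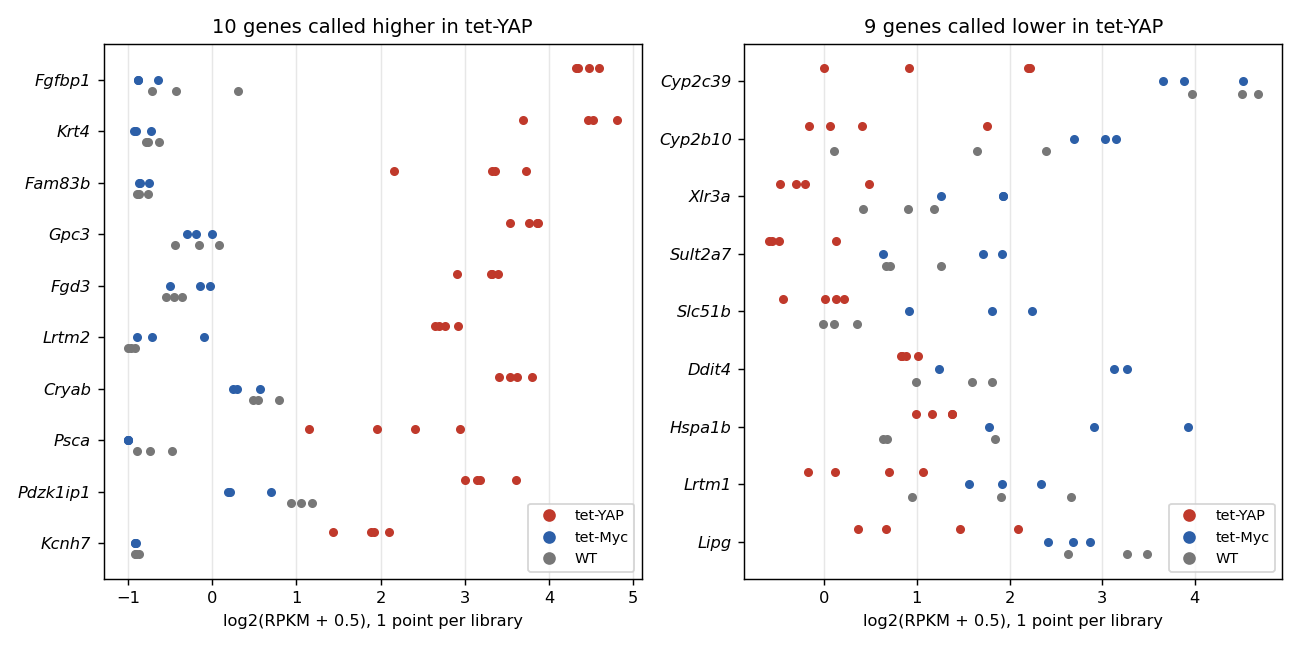
Levels of the 10 genes with the largest increases (left) and 9 of the 10 with the largest decreases (right) in tet-YAP relative to tet-Myc, as log2(RPKM + 0.5) with 1 point per library for tet-YAP (4), tet-Myc (3) and WT (3). In every gene the tet-YAP points lie on one side of all tet-Myc points, and in Hspa1b, Ddit4 and Slc51b tet-Myc library 3 is the nearest of its group.

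The 6-base TEAD core was looked for in RefSeq promoter windows (build GRCm38.p6, 250 bases before to 50 after a gene's start) as GGAATG on either strand, and the E-box as CACGTG. Of 561 genes called higher in tet-YAP, 407 had a window, and 83 of these (20.4%) held the TEAD core, against 18 of 135 (13.3%) among genes called lower, 14.7% of 9331 genes tested and 14.7% of all 32851 windows. The E-box stood in 43 of 407 (10.6%) of the genes called higher, 25 of 135 (18.5%) of those called lower, 11.7% of the genes tested and 7.15% of all windows. A gene was counted if any of its windows held the motif, whereas the share of all windows counts single windows. Of the 13 YAP-TEAD targets called higher, 8 had a window and 6 held the core, and of the 24 tested 16 had a window and 7 held it. A match describes the letters of the window and nothing more. The 3 windows below were chosen among the 6 called targets that held the core and belong to genes described next, with each core in capitals. In Ankrd1 (chr19:36119795-36120094, minus strand) cores start 210 and 123 bases before the start, in Ajuba (chr14:54577612-54577911, minus strand) 186 and 164, and in Amotl2 (chr9:102717554-102717853, plus strand) 65.
Ankrd1: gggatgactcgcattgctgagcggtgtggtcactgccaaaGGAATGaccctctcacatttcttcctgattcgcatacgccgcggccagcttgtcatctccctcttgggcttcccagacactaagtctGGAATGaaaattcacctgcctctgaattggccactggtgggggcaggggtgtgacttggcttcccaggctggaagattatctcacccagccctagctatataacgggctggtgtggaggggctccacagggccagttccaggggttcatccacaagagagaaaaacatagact
Ajuba: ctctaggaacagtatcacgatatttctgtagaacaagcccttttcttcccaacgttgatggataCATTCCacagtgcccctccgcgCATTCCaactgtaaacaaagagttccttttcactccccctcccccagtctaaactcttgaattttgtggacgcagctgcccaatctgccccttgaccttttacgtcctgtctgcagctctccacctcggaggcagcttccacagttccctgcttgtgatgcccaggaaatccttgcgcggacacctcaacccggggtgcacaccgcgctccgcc
Amotl2: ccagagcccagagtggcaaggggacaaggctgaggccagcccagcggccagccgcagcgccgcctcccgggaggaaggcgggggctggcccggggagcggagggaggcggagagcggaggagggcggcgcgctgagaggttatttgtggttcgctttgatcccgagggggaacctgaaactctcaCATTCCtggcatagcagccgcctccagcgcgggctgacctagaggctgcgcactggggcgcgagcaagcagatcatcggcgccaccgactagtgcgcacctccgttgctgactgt

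Of the 24 tested targets of YAP and TEAD, 13 rose and none fell in tet-YAP relative to tet-Myc, with a list median of 0.79 against -0.07 over all genes tested. Over all genes tested, 4.46% were called higher and 1.45% lower, the shares to set beside the counts of this and later lists. Ankrd1, a cardiac ankyrin repeat protein used as a YAP reporter, stood at 2.89, 1.81, 5.16 and 5.30 RPKM in tet-YAP libraries, against 0.254, 0.219 and 0.0988 RPKM in tet-Myc libraries (2.54 ± 0.29, adjusted p = 8.02e-06). Ajuba, a LIM protein that binds LATS kinases, stood at 15.1, 11.6, 12.3 and 10.9 RPKM in tet-YAP libraries, against 2.49, 3.83 and 1.76 RPKM in tet-Myc libraries (2.06 ± 0.20, adjusted p = 1.08e-06). Amotl2, an angiomotin that binds YAP, stood at 16.8, 12.9, 18.7 and 15.6 RPKM in tet-YAP libraries, against 4.65, 4.43 and 6.41 RPKM in tet-Myc libraries (1.55 ± 0.15, adjusted p = 1.08e-06). The groups were apart in all of these, and for Amotl2 the tet-Myc libraries also lay below every WT library (9.45, 7.32 and 8.04 RPKM). Tead1, one of the DNA-binding partners, rose to 5.25, 5.21, 7.47 and 7.48 RPKM in tet-YAP libraries, against 1.23, 2.03 and 1.91 RPKM in tet-Myc libraries (1.62 ± 0.18, adjusted p = 5.78e-06). Calls of these genes held under all 20 alternatives.

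Cyr61, Ctgf and Gadd45b were chosen after their values were seen. Cyr61, a secreted matrix-associated protein and common readout of YAP, was at 11.5, 10.3, 12.8 and 12.5 RPKM in tet-YAP libraries and 6.42, 5.67 and 4.202 RPKM in tet-Myc libraries (1.06 ± 0.20, adjusted p = 0.00187), and WT held 1.87, 3.08 and 4.53 RPKM. Ctgf, a relative of Cyr61, was at 7.34, 4.16, 9.71 and 9.64 RPKM in tet-YAP libraries and 3.95, 4.08 and 4.19 RPKM in tet-Myc libraries (0.78 ± 0.20, adjusted p = 0.0247). Gadd45b, a stress-response gene, was at 11.2, 7.55, 8.85 and 6.92 RPKM in tet-YAP libraries and 1.80, 2.40 and 1.12 RPKM in tet-Myc libraries (2.02 ± 0.45, adjusted p = 0.00878). Tet-YAP library 2 was the lowest of its group in Cyr61 and Ctgf and overlapped the tet-Myc libraries in Ctgf. The Ctgf call was lost without tet-YAP library 3 or 4 and without any single tet-Myc library, and the Gadd45b call without tet-Myc library 3. The other genes called higher were Crim1, Lats2, Nuak2, Wwc1, Asap1 and Ptpn14, with log2 differences of 0.72 to 1.15. The 11 that did not pass ranged from -1.0 in Nt5e, an ectonucleotidase, to 0.82 in Axl, a receptor tyrosine kinase.

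**Figure D2:**
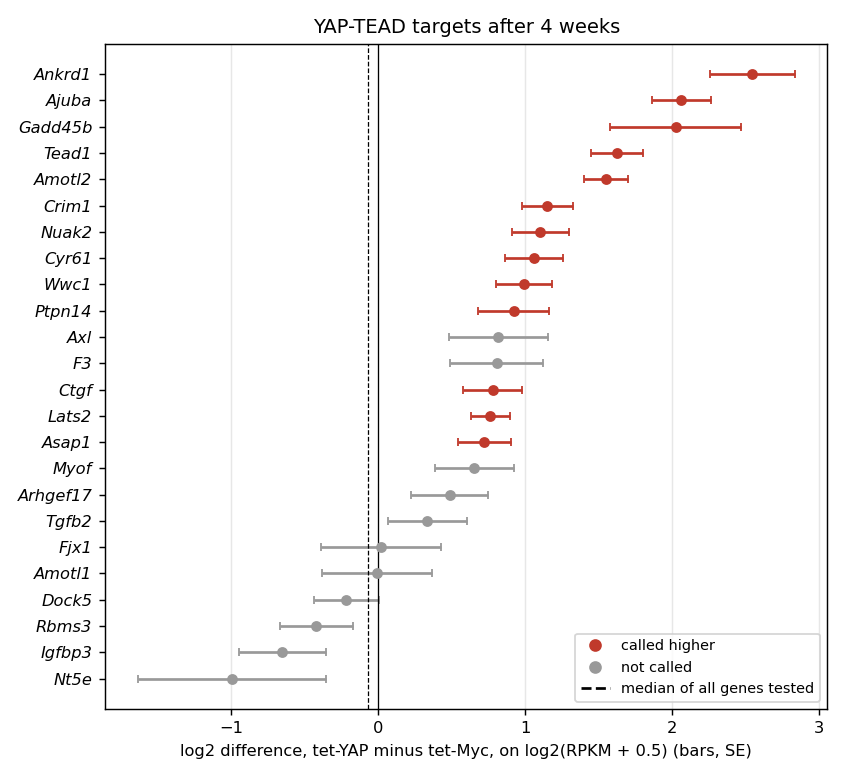
Log2 differences, tet-YAP minus tet-Myc, of the 24 YAP-TEAD targets tested, with the standard error of the limma fit as bars, called genes in red and the median of all genes tested (-0.07) as a dashed line. The 13 called genes lie at 0.72 or above, and 5 genes that were not called lie below 0.

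Of 15 Hippo kinases, adaptors and TEADs, 2 rose and none fell (median 0.17), against 4.46% of all genes tested called higher. Tead4, another DNA-binding partner of YAP, stood at 2.63, 2.34, 3.81 and 3.33 RPKM in tet-YAP libraries, against 0.0618, 0.0829 and 0.152 RPKM in tet-Myc libraries (2.54 ± 0.23, adjusted p = 4.10e-07). Amot, an angiomotin, stood at 8.44, 5.34, 6.75 and 7.44 RPKM in tet-YAP libraries, against 4.21, 4.90 and 1.97 RPKM in tet-Myc libraries (0.90 ± 0.24, adjusted p = 0.0285), and its call was lost without tet-YAP libraries 1, 3 or 4, or tet-Myc library 3. Tead4 lay above in every tet-YAP library, by a wide gap, whereas tet-YAP library 2 and tet-Myc library 2 nearly met in Amot. Of 12 genes of the Myc, Max and Mxd network, none passed (median -0.16).

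Some biliary and Notch genes rose in tet-YAP, and most members of both lists did not pass. Of 18 cholangiocyte and progenitor markers, 5 rose, among them Bicc1, Pkhd1, Spp1 and Prom1, and none fell (median 0.19). Over all genes tested, 4.46% were called higher. Bicc1, an RNA-binding protein of renal and biliary epithelium, stood at 6.44, 5.40, 7.02 and 6.88 RPKM in tet-YAP libraries, against 0.747, 1.26 and 0.346 RPKM in tet-Myc libraries (2.49 ± 0.21, adjusted p = 1.12e-07). Pkhd1, the ciliary protein fibrocystin, stood at 7.51, 6.93, 7.84 and 8.62 RPKM in tet-YAP libraries, against 1.75, 2.13 and 1.84 RPKM in tet-Myc libraries (1.77 ± 0.17, adjusted p = 8.40e-07). Spp1, osteopontin, stood at 21.8, 17.95, 20.9 and 24.2 RPKM in tet-YAP libraries, against 10.9, 11.3 and 7.93 RPKM in tet-Myc libraries (1.05 ± 0.18, adjusted p = 0.00101). In all of these the groups lay apart. Sox9, a progenitor transcription factor chosen after its values were seen, was high in tet-YAP libraries 3 and 4, at 0.647, 0.786, 3.13 and 3.14 RPKM in tet-YAP libraries, against 0.340, 0.516 and 0.282 RPKM in tet-Myc libraries, and did not pass (1.27 ± 0.45, adjusted p = 0.0981). The defining cholangiocyte markers Krt19, Krt7 and Epcam were low in both groups, with Epcam at 0.366 to 1.05 RPKM in tet-YAP and 0.230 to 0.467 RPKM in tet-Myc, Krt19 at 0.373 to 0.568 RPKM in tet-YAP and 0.254 to 0.601 RPKM in tet-Myc, and Krt7 at 0.182 to 0.297 RPKM in tet-YAP and 0.0943 to 0.344 RPKM in tet-Myc.

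Of 15 Notch pathway genes, 3 rose and none fell (median 0.41), against 4.46% of all genes tested called higher. Jag1, a ligand, stood at 5.03, 3.76, 8.77 and 7.90 RPKM in tet-YAP libraries, against 1.53, 1.84 and 1.06 RPKM in tet-Myc libraries (1.75 ± 0.20, adjusted p = 1.19e-05). Lfng, a glycosyltransferase that modifies the receptors, stood at 4.98, 3.58, 3.25 and 3.29 RPKM in tet-YAP libraries, against 1.26, 1.25 and 1.35 RPKM in tet-Myc libraries (1.24 ± 0.30, adjusted p = 0.0156). Hes1, a target of the pathway, stood at 10.1, 6.68, 7.18 and 5.73 RPKM in tet-YAP libraries, against 2.23, 2.29 and 5.46 RPKM in tet-Myc libraries (1.12 ± 0.29, adjusted p = 0.0238). Jag1 was highest in tet-YAP libraries 3 and 4, and Lfng and Hes1 in library 1. For Hes1 the difference lay partly in tet-Myc, whose libraries 1 and 2 lay below every WT library (2.998, 5.20 and 7.11 RPKM), and its call was lost without tet-Myc library 1 or 2 and without tet-YAP library 1 or 3. In Lfng every tet-Myc library also lay below every WT library (2.12, 1.55 and 1.55 RPKM), and its call was lost without tet-Myc library 1 or 2.

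Of 19 oncofetal genes, 3 rose, Gpc3, Sox4 and Peg3, and none fell (median 0.12, which turned to -0.01 after quantile normalization). Over all genes tested, 4.46% were called higher. Sox4, a transcription factor of progenitor cells, stood at 5.15, 5.32, 10.5 and 9.56 RPKM in tet-YAP libraries, against 0.749, 1.21 and 0.380 RPKM in tet-Myc libraries (2.65 ± 0.28, adjusted p = 3.99e-06), and Peg3, an imprinted zinc finger gene, stood at 3.79, 2.93, 4.498 and 5.88 RPKM in tet-YAP libraries, against 1.05, 0.679 and 1.39 RPKM in tet-Myc libraries (1.62 ± 0.24, adjusted p = 0.000181). In both the groups lay apart, and for Peg3 every tet-Myc library also lay below every WT library (1.52, 2.09 and 2.79 RPKM). Of 22 epithelial junction, keratin and annexin genes, 2 rose, S100a11 (log2 difference 1.29 ± 0.21, adjusted p = 0.000760), a calcium-binding protein, and Anxa5 (0.71 ± 0.17, adjusted p = 0.0166), which binds phosphatidylserine, and none fell (median 0.08). The Anxa5 call was lost without tet-Myc library 3.

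**Figure D3:**
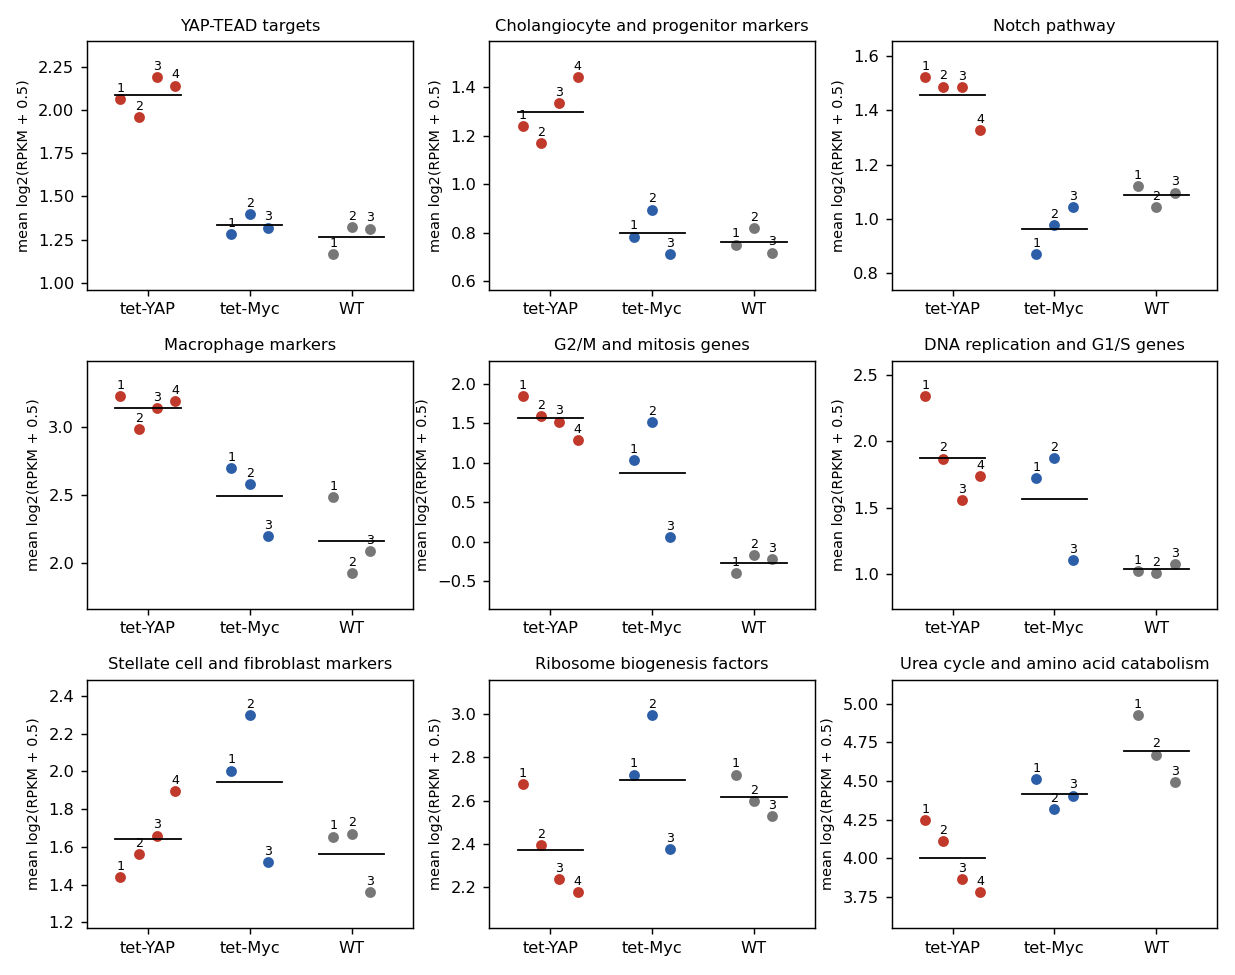
Mean log2(RPKM + 0.5) over the tested genes of 9 lists in each library of tet-YAP (4), tet-Myc (3) and WT (3), numbered in column order, with the group mean as a line. Tet-YAP lies above tet-Myc without overlap in YAP-TEAD targets, cholangiocyte markers, Notch genes and macrophage markers, and tet-Myc library 3 lies close to WT in the cell cycle and stellate lists, apart from tet-Myc libraries 1 and 2.

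Cell cycle genes were mostly called higher in tet-YAP than in WT, with few calls between tet-YAP and tet-Myc. Of 30 G2/M and mitosis genes, 1 rose between tet-YAP and tet-Myc, Kif23 (1.60 ± 0.41, adjusted p = 0.0218), a kinesin of the midbody, and none fell, although the list median was 0.69. Their mean log2 level was 1.84, 1.59, 1.52 and 1.29 in tet-YAP libraries 1 to 4, against 1.04, 1.51 and 0.06 in tet-Myc libraries 1 to 3 and -0.40, -0.17 and -0.22 in WT. Tet-Myc library 2 thus lay within the tet-YAP range and library 3 near WT. Without tet-Myc library 3 the list median was 0.28 and no gene was called, so Kif23 was lost, as it was without tet-YAP library 3 or tet-Myc library 1. Relative to WT, 29 of the 30 genes were called higher in tet-YAP, against 11.5% of all genes tested. None was called in tet-Myc relative to WT, where the list median was 1.11 and 0.0159% of all genes were called higher.

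Of 41 genes of DNA replication and G1/S, 2 rose, E2f1 and Lig1, and none fell (median 0.31), a share close to the 4.46% of all genes called higher. E2f1, an activator of S phase genes, stood at 4.34, 3.38, 3.67 and 3.69 RPKM in tet-YAP libraries, against 1.22, 1.59 and 0.771 RPKM in tet-Myc libraries (1.36 ± 0.22, adjusted p = 0.000664), and the groups lay apart. Lig1, the replicative DNA ligase, stood at 4.18, 3.33, 2.47 and 2.58 RPKM in tet-YAP libraries, against 1.35, 1.68 and 0.707 RPKM in tet-Myc libraries (1.08 ± 0.32, adjusted p = 0.0474), and its call was lost without any single one of the 7 libraries. Of 21 p53 targets, Gadd45a, a DNA damage response gene, rose and Ddit4 fell (median -0.08, which turned to 0.03 after median ratio scaling). Gadd45a was at 8.18, 5.98, 6.08 and 5.63 RPKM in tet-YAP libraries and 2.04, 2.15 and 2.67 RPKM in tet-Myc libraries (1.31 ± 0.25, adjusted p = 0.00258), the groups lying apart, with WT at 6.11, 2.11 and 4.90 RPKM.

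Genes of ribosome production, which Myc is known to control, had mostly negative differences, and 1 passed. Of 40 ribosome biogenesis factors 39 had negative differences (median -0.34), and 1 fell, Nhp2, a component of box H/ACA particles, at 8.42, 6.27, 5.04 and 5.08 RPKM in tet-YAP libraries and 13.2, 12.9 and 7.99 RPKM in tet-Myc libraries (-0.82 ± 0.24, adjusted p = 0.0460). The groups overlapped, and the call was lost without tet-YAP library 2, 3 or 4 and without tet-Myc library 1 or 2. The list's mean log2 level was 2.67, 2.40, 2.24 and 2.18 in tet-YAP libraries 1 to 4, against 2.72, 2.99 and 2.38 in tet-Myc libraries 1 to 3 and 2.53 to 2.72 in WT. None of 44 cytosolic ribosomal protein genes passed (median -0.27, near the -0.23 of genes close to the ceiling). Of 28 genes of nucleotide, polyamine and one-carbon synthesis, 1 rose, Phgdh, the first enzyme of serine synthesis (1.64 ± 0.28, adjusted p = 0.00105), and none fell (median -0.26).

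Chaperones and mitochondrial ribosomal proteins formed lists that were chosen after the values were seen. Of 59 heat shock and DnaJ chaperones, 9 fell and none rose (median -0.29), against 1.45% of all genes tested called lower. Besides Hspa1b those that fell were Hsph1, Dnaja3, Dnajb9, Dnajb1, Hspd1, Hspe1, Hspb8 and Dnajb11. Relative to WT, the list median was -0.30 in tet-YAP, with 16 genes called lower and 3 higher, against 15.3% and 11.5% of all genes tested. In tet-Myc relative to WT it was -0.07, with none called. Hsph1, an Hsp110 chaperone, stood at 3.72, 4.11, 4.53 and 5.79 RPKM in tet-YAP libraries, against 11.3, 9.89 and 7.72 RPKM in tet-Myc libraries and 3.95, 4.44 and 4.91 RPKM in WT libraries (-1.01 ± 0.21, adjusted p = 0.00540), so that tet-YAP was near WT and every tet-Myc library above both. Of 76 mitochondrial ribosomal protein genes, 3 fell, Mrpl47, Mrpl12 and Mrps11, and none rose (median -0.38), against 1.45% of all genes tested called lower. Mrpl47 stood at 4.70, 3.64, 3.24 and 2.67 RPKM in tet-YAP libraries, against 5.59, 6.74 and 5.23 RPKM in tet-Myc libraries and 7.36, 5.44 and 5.36 RPKM in WT libraries (-0.66 ± 0.17, adjusted p = 0.0256), and here tet-Myc was near WT. The Mrpl47 call was lost without tet-YAP library 3 or 4 and without tet-Myc library 1 or 2.

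Hepatocyte programmes were lower in tet-YAP in direction, with few genes passing. Of 42 cytochrome P450 genes, 2 fell, Cyp2c39 and Cyp2b10 (median -0.34), against 1.45% of all genes tested called lower. Of 36 phase II enzymes, 2 fell, Sult1b1, a thyroid hormone sulphotransferase, at 2.32, 2.47, 1.52 and 1.36 RPKM in tet-YAP libraries and 4.15, 3.84 and 4.70 RPKM in tet-Myc libraries (-1.0 ± 0.25, adjusted p = 0.0189), and Gstt3, a glutathione transferase with close relatives (-1.36 ± 0.40, adjusted p = 0.0467), whose groups overlapped (median -0.39). The Sult1b1 call was lost without tet-YAP library 3 or 4 and without tet-Myc library 1 or 3, and the Gstt3 call without tet-YAP library 3 or 4 and without any single tet-Myc library. Of 25 genes of bile acid synthesis and transport, 1 fell, Slc51b (median -0.43). All 34 genes of the urea cycle and amino acid catabolism had negative differences and none passed (median -0.45). The libraries did not overlap in 17 of them, against 12.9% of all genes tested that lay lower without overlap. Quantile normalization moved the median to -0.19.

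Markers of both ends of the liver lobule leaned the same way. Of 17 pericentral genes, 1 fell, Rhbg, an ammonium transporter, at 1.22, 2.58, 1.33 and 0.871 RPKM in tet-YAP libraries and 3.75, 3.91 and 3.59 RPKM in tet-Myc libraries (-1.15 ± 0.24, adjusted p = 0.00604; median of the list -0.31). Of 17 periportal genes, 1 fell, Aldh1b1, a mitochondrial aldehyde dehydrogenase, at 16.7, 18.1, 12.4 and 13.2 RPKM in tet-YAP libraries and 32.2, 28.5 and 25.2 RPKM in tet-Myc libraries (-0.91 ± 0.16, adjusted p = 0.00159; median -0.47). Both genes lay apart between the groups. None passed among 22 hepatocyte transcription factors (median -0.25), 30 secreted proteins (-0.25), 24 acute phase genes (-0.16), 23 cholesterol synthesis genes (-0.24), 20 fatty acid synthesis genes (-0.29), 19 glycolysis genes (-0.12), 9 gluconeogenesis genes (-0.26) and 21 clock genes (-0.18). After quantile normalization the medians of acute phase genes, glycolysis and gluconeogenesis turned to 0.08, 0.06 and 0.01. Of 32 PPAR-alpha targets, 2 rose, Vnn1 (log2 difference 1.25 ± 0.27, adjusted p = 0.00816), a pantetheinase, and Acot2 (1.22 ± 0.29, adjusted p = 0.0137), a mitochondrial thioesterase, and none fell, while the list median was -0.29. The Acot2 call was lost without tet-Myc library 3. Alb, Apoa1, Hnf4a and Ttr, the defining hepatocyte markers, did not pass, and Alb and Apoa1 lay close to the ceiling. The median of secreted proteins was near the -0.23 of the 29 genes close to the ceiling. The part of the ceiling in these medians was not tested.

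Markers of other cells in the liver moved with the comparison in part. In whole liver, fewer cells of a type and less RNA per cell cannot be told apart. Of 21 macrophage markers, 2 rose, Csf1r and Timd4, and none fell (median 0.59), against 4.46% of all genes tested called higher. In 14 of the 21 tet-YAP lay higher without overlap, against 16.3% of all genes tested. The defining markers Emr1, Clec4f and Cd68 did not pass (log2 differences 0.99, 0.33 and 0.91, adjusted p = 0.210, 0.770 and 0.155). Csf1r, the CSF1 receptor, stood at 15.8, 13.5, 14.1 and 13.1 RPKM in tet-YAP libraries, against 8.93, 6.99 and 6.48 RPKM in tet-Myc libraries (0.89 ± 0.18, adjusted p = 0.00404), and Timd4, a phosphatidylserine receptor of Kupffer cells, stood at 14.3, 10.8, 10.6 and 9.94 RPKM in tet-YAP libraries, against 3.89, 2.47 and 2.67 RPKM in tet-Myc libraries (1.77 ± 0.37, adjusted p = 0.00610). The groups lay apart in both, and the summed level of the list was 247 to 313 RPKM in tet-YAP and 146 to 208 RPKM in tet-Myc. Of 15 chemokine ligands, 2 rose, Ccl24 (2.11 ± 0.31, adjusted p = 0.000165) and Cxcl13 (1.47 ± 0.28, adjusted p = 0.00264), and none fell (median 0.24). Of 25 interferon-stimulated genes, 1 rose, Ifit2 (1.46 ± 0.27, adjusted p = 0.00171), and none fell (median 0.24), a share close to the 4.46% of all genes called higher. The Ifit2 call was lost in the male-pattern libraries alone. The part of macrophages in the differences of other genes was not tested.

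None of the other marker lists had a called gene. Of 28 stellate cell and fibroblast markers, 22 had negative differences (median -0.35). Without overlap, 9 of the 28 lay lower in tet-YAP, against 12.9% of all genes tested. The summed levels of the list were 95.2 to 116 RPKM in tet-YAP and 106 to 157 RPKM in tet-Myc. Its mean log2 level in tet-Myc was 2.01 and 2.30 in libraries 1 and 2 and 1.52 in library 3, against 1.36 to 1.67 in WT. The medians were 0.06 over 19 endothelial markers, 0.20 over 11 neutrophil markers, 1.03 over 2 lymphocyte markers, -0.23 over 7 erythroid markers, 0.14 over 16 antigen presentation genes and 0.20 over 18 AP-1 and immediate early genes. The defining lymphocyte markers Cd3e and Cd79a stayed under 1 RPKM in all 7 libraries, as did the neutrophil gene Mpo.

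Sex-biased genes followed the female pattern of single libraries, and male-biased genes were also lower in tet-YAP in direction. None of 18 female-biased and 22 male-biased liver genes passed, nor any of 5 X-inactivation and Y-linked genes (medians -0.45, -0.27 and 0.16). The mean log2 level of the female-biased list was 3.22 in tet-YAP library 2 and 3.96 in tet-Myc library 3, against -0.07 to 0.98 in the other 3 tet-YAP libraries and -0.16 and 0.02 in the other 2 tet-Myc libraries. The mean log2 level of the male-biased list was 3.599, 2.184, 3.545 and 3.575 in tet-YAP libraries 1 to 4. In tet-Myc libraries 1 to 3 it was 4.198, 3.863 and 2.534, so tet-YAP lay lower within each sex pattern. Of the 22 male-biased genes, 20 had negative differences. With the sex pattern as a covariate 801 genes were called, and in the male-pattern libraries alone 1456, 919 higher and 537 lower.

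**Figure D4:**
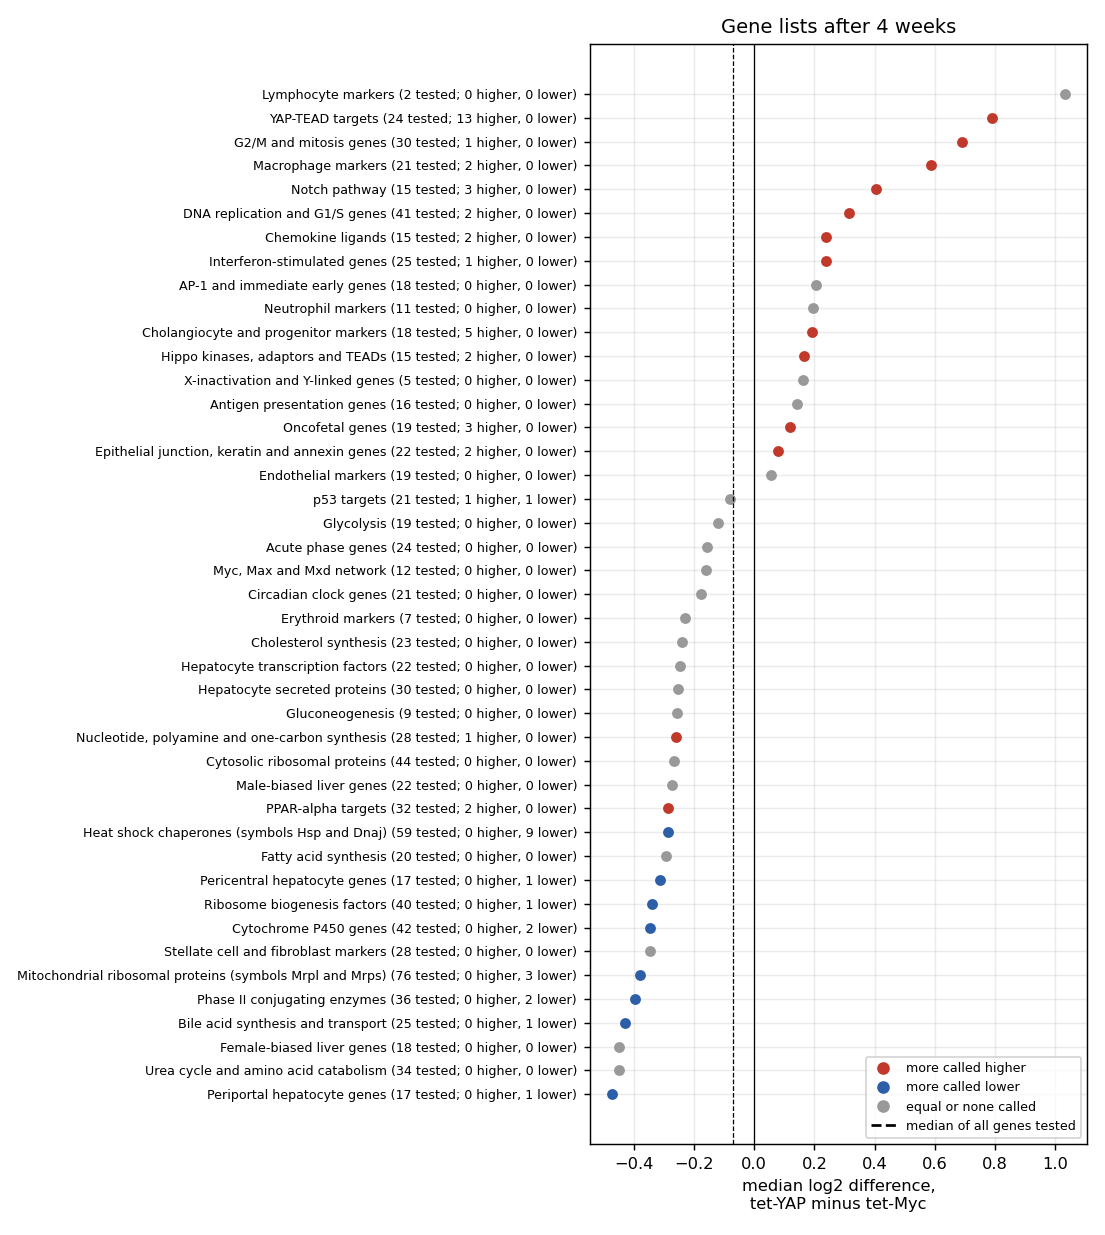
Median log2 difference, tet-YAP minus tet-Myc, of each gene list over its tested genes, with the numbers tested and called beside the name and the median of all genes tested (-0.07) as a dashed line. YAP-TEAD targets have 13 called genes and a median of 0.79, and the lists of mitochondrial ribosomal proteins and heat shock chaperones were chosen after the values were seen.

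The same contrast after 2 days of induction in R26-rtTA livers used other libraries and was fitted on its own table. There 448 genes (3.98%) were higher and 785 (6.97%) lower in tet-YAP than in tet-Myc, of 11263 tested, and median ratio scaling gave 676 and 429. Of the 561 genes higher at 4 weeks, 394 were tested at 2 days, and 99 of these (25.1%) were higher and 3 lower, with a median log2 difference of 0.26 against -0.10 over all genes. Of the 182 genes lower at 4 weeks, 177 were tested, and 60 (33.9%) were lower and 1 higher (median -0.38). Seen from 2 days, 99 of 432 genes higher there and tested at 4 weeks (22.9%) were higher at 4 weeks, and 60 of 774 lower there (7.75%) were lower. The R26 tet-YAP libraries held 3 close pairs, and with 5 close pairs of R26 libraries averaged 77 of the higher and 41 of the lower genes were shared.

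The shared genes included YAP-TEAD targets and P450 genes. Of 18 YAP-TEAD targets tested at 2 days, 11 rose and none fell (median 0.71). Ajuba was at 14.1 to 15.3 RPKM in R26 tet-YAP libraries and 3.97, 3.10, 2.57 and 1.79 RPKM in R26 tet-Myc libraries (log2 difference 2.22, adjusted p = 5.54e-07). Vnn1 rose in both settings, with 9.31 to 18.4 RPKM in R26 tet-YAP libraries and 2.99, 3.23, 5.99 and 2.22 RPKM in R26 tet-Myc libraries (1.91, adjusted p = 1.62e-05), against 19.5, 14.1, 12.7 and 11.8 RPKM in LAP tet-YAP libraries and 5.69, 5.27 and 6.15 RPKM in LAP tet-Myc libraries. Cyp2c39 fell in both, at 0.268 to 0.961 RPKM in R26 tet-YAP libraries and 7.27, 25.5, 29.3 and 11.7 RPKM in R26 tet-Myc libraries (-3.84, adjusted p = 1.66e-06), as did Cyp2b10 (-3.25, adjusted p = 0.00119). The R26 groups lay apart in Ajuba, Vnn1, Cyp2c39 and Cyp2b10.

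Several of the most separated genes at 4 weeks were below the filter at 2 days. Fgfbp1, Krt4, Fam83b, Gpc3, Fgd3, Lrtm2, Psca and Kcnh7 were not tested there, nor were Ankrd1, Tead4, Bicc1 and Sox4. At values under 1 RPKM, Fgd3, Lrtm2, Ankrd1, Tead4 and Bicc1 were higher in every R26 tet-YAP than in every R26 tet-Myc library. Among the genes that passed the filter at 2 days, 5.88% lay higher in tet-YAP without overlap. Fgd3 was at 0.574 to 0.916 RPKM in R26 tet-YAP and 0.142 to 0.384 RPKM in R26 tet-Myc libraries. The R26 groups overlapped in the other untested genes named here. Pdzk1ip1 was tested and not called at 2 days (-0.52, adjusted p = 0.0798). The cell cycle lists differed little at 2 days, with none of 17 mitosis genes called and 1 of 36 replication genes higher and 2 lower. Of 32 PPAR-alpha targets 13 were higher and 1 lower at 2 days (median 0.28), and of 17 macrophage markers 2 were higher (median 0.03). No test was made across the tables, so these differences between 2 days and 4 weeks are untested.

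**Figure D5:**
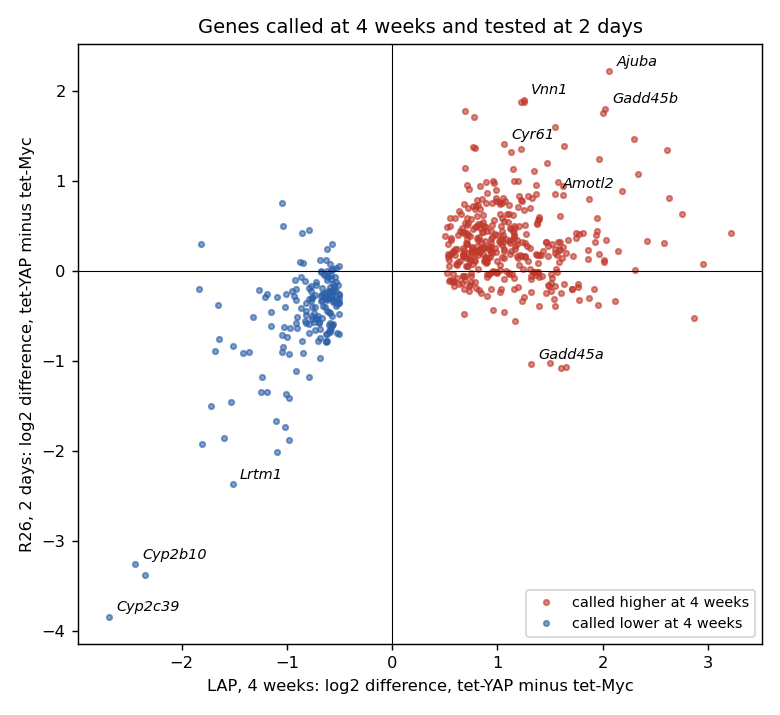
Log2 difference, tet-YAP minus tet-Myc, in LAP livers after 4 weeks (horizontal) and in R26 livers after 2 days (vertical) for the 571 genes called at 4 weeks and tested at 2 days, 394 called higher (red) and 177 called lower (blue). Ajuba and Cyp2c39 lie far out in the same direction in both, whereas Gadd45a is higher at 4 weeks and lower at 2 days.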

How the data were processed

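Liver RNA of 7 LAP libraries (4 tet-YAP, 3 tet-Myc) was compared, beside 3 WT libraries, with groups taken from the sample labels and columns assigned to groups by name. The protocol in the labels names TruSeq RNA v2 with its poly-T beads left out, an unstranded preparation. Per gene, the deposited unit is RPKM as computed by the authors. Among the tools of the submitters' processing notes are TopHat2 2.0.8 and featureCounts 1.4.5-p1, and the build named there is mm9. Removal of duplicate reads is not given in the sources used here. A further deposited table holds the authors' own base means, log2 fold changes, adjusted p-values and calls for R26 groups and was not used.

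Each table held 21671 genes, of which 27 with a date in place of a symbol were left out. Genes at 1 RPKM or more in at least 3 libraries were tested with limma 3.58.1 (R 4.3.3) on log2(RPKM + 0.5), a scale that understates the change of low genes, over all 21 LAP libraries or all 17 R26 libraries with group means and a mean-dependent variance trend. P-values were two-sided and adjusted by the Benjamini-Hochberg method over all genes. Depth was recovered from low RPKM values, of which 90.1% lay within 0.12 of a whole read, with the absolute scale set by GENCODE vM21 gene lengths matched by symbol, and covers counting error only. No count test was run, as RPKM steps depend on gene length.

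Named genes were Myc and Yap1, the 10 largest increases and 10 largest decreases among called genes without overlap and with at least 1 RPKM in the higher group (gene models, small RNAs, Xist and Y-linked genes left out), and up to 4 called genes of each of 41 lists, and a few of these genes are not reported here. The members and lists were chosen with earlier results of these data known. All columns were matched to a group. Promoter windows came from RefSeq (GRCm38.p6).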

Additional observations from a re-analysis of the deposited data

Results flagged for a closer look

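Sult2a7 stood at 0.593 RPKM in tet-YAP library 2, against 0.161 to 0.214 RPKM in tet-YAP libraries 1, 3 and 4. Among 56 named genes examined in the tet-YAP group this was the 1 gene with a library so far from the others, where chance alone gives about 1 in 20. Tet-YAP library 2 has the female pattern of Xist and Y-linked genes. In tet-Myc the female-pattern library 3 was the lowest, at 1.06 RPKM against 2.79 and 3.28 RPKM. WT held 1.13 RPKM in the male-pattern library and 1.09 and 1.89 RPKM in the female-pattern libraries. A part of the sex pattern in this value was not tested.

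Yap1 was higher in tet-YAP than in tet-Myc after 2 days in R26 livers, with a log2 difference of 0.52 and no overlap between the groups, whereas in LAP livers after 4 weeks the difference was -0.22 with the groups apart in the opposite direction. Gadd45a was lower in tet-YAP after 2 days, with a log2 difference of -1.03, and higher after 4 weeks, with 1.31, again without overlap in either. With close pairs of R26 libraries averaged, the Gadd45a call after 2 days was lost. The difference between the settings was not tested for either gene, since the values stand in separately made tables.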

How the results depend on the processing

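Of 65 named genes, including 9 chosen after their values were seen, 59 were called and 31 of these were called under every alternative that could be fitted. The 743 calls between tet-YAP and tet-Myc became 1522 with only the 7 libraries in the fit, 1180 after median ratio scaling, 1456 in the male-pattern libraries alone and 359 at a log2 difference of at least 1, and 364 to 748 without single libraries. Chosen after seeing the data, averaging tet-YAP libraries 3 and 4 gave 446 and tet-YAP libraries 1 and 2 alone gave 249. With tet-YAP libraries 3 and 4 alone the count was 707. The 3373 calls between tet-YAP and WT became 1710 after quantile normalization and 878 with tet-YAP libraries 1 and 2 alone, and ranged over 2263 to 3779 without single libraries. The 3 calls between tet-Myc and WT became 0 with a pseudocount of 0.1, with the filter on the 7 libraries, and with tet-YAP libraries 3 and 4 averaged or 1 and 2 alone, 9 without a filter, 64 after median ratio scaling, 5 after quantile normalization, 101 in the male-pattern libraries alone and 0 to 225 without single libraries. Calls after 2 days in R26 numbered 873 with close pairs averaged (also chosen after seeing the data), against 1233. The difference of Gt(ROSA)26Sor reversed to 0.018 with tet-YAP libraries 3 and 4 alone, and that of Ppl to -0.11 in the male-pattern libraries alone and -0.0666 without tet-Myc library 3, and none of these passed. Leaving out single libraries moved Ppl over -0.0666 to 0.379. The cause was not tested. No paired analysis was possible because the LAP columns carry no replicate numbers. The R26 headers carry numbers, and a replicate block on them, chosen after seeing the data, gave 1010 calls after 2 days. Deviations of equally numbered tet-YAP and tet-Myc libraries correlated at -0.14 to 0.062, so the numbers were not taken to pair libraries.

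Precision is limited by the 3 tet-Myc libraries, of which library 3 lies apart, by the ceiling near 1541 to 1611 reads per kilobase, and at low values, since 1 RPKM stands for 31.2 to 46.9 reads per kilobase.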
